A study of Homo sapiens with 4 samples.

Results

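The 34 genes described here encode the sensors, enzymes and carriers that make and move cholesterol and fatty acids. They were chosen by gene name from a table of 20329 genes, and 34 of 34 were listed. All 34 had a mean level of at least 1 FPKM (fragments mapped to a gene, divided by its length in kilobases and by the library's size) over the libraries, the limit for testing, which 13928 genes passed. The cells were BM1 and LM2, which the labels give as the bone and the lung metastasis derivative of MDA-MB-231, an established human triple-negative breast cancer line. Each line carried a lentiviral shRNA, either a non-specific one (control) or one against hnRNPM (knockdown), a nuclear RNA-binding protein studied for its part in splicing. The design was 4 libraries of polyadenylated RNA, 1 per line and treatment, from stable cell lines in medium with fetal bovine serum. The series title concerns splicing during the epithelial-mesenchymal transition, whereas the table analysed here holds gene levels. The labels do not say whether a stable line was a clone or a pool, or how many shRNAs were used.

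Cells make cholesterol from acetyl-CoA through mevalonate, farnesyl diphosphate, squalene and lanosterol, and they make fatty acids from the same acetyl-CoA through malonyl-CoA. Both routes are under the SREBP transcription factors, which are held in the endoplasmic reticulum by SCAP and the INSIG proteins when sterols are plentiful and are cut free to enter the nucleus when sterols run low. SREBP-2 acts mainly on sterol genes and SREBP-1 mainly on fatty acid genes, each together with NF-Y bound at CCAAT boxes. The efflux pump ABCA1 is known to follow a different factor, LXR, which responds to oxidised sterols.

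HNRNPM, the targeted gene, stood at 171 FPKM in the BM1 control and 28.4 FPKM in the BM1 knockdown, and at 132 and 20.3 FPKM in the LM2 libraries, so 16.6% and 15.4% of the control level was left. The depth inferred from the steps between low values, taking 1 step as 1 fragment, ranged from 22784000 to 41503000 fragments per library, which for a member spread over its longest coding transcript meant 139 fragments at the fewest (TM7SF2 in the LM2 knockdown). Mitochondrial genes took 12.8% and 11.8% of the FPKM sum in the knockdowns against 9.31% and 8.80% in the controls. Of the line's defining markers, VIM (1160 to 2354 FPKM), CD44, AXL and CAV1 were high in every library and EPCAM was at 2.999 to 4.59 FPKM. ERBB2 was at 13.5 to 21.9 FPKM. CDH1, the epithelial cadherin, was at 0.489 and 0.170 FPKM in the BM1 and LM2 controls and at 4.08 and 2.30 FPKM in the knockdowns. Of the markers of other cells, VWF and PLIN1 did not exceed 0.163 FPKM, while CD68 was at 23.5 and 9.50 FPKM in the BM1 and LM2 controls and at 4.46 and 2.04 FPKM in the knockdowns. The part of the mitochondrial share, CDH1 and CD68, which moved with knockdown in both lines, in the results below was not tested. The other markers looked for, ESR1, PGR, PTPRC, CD3E, PECAM1, ADIPOQ and ALB, had no values among the genes analysed here, so their levels are not known. In such bulk RNA, fewer cells of a type and less RNA per cell cannot be told apart.

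Of the 34 members, 2 (5.88%) were called higher after knockdown over both lines, beside 2.71% of all tested genes, and 2 (5.88%) lower, beside 2.76% of all tested genes. ABCA1, which pumps cholesterol out of the cell, and HMGCS1, which makes the HMG-CoA from which mevalonate is formed, rose. LBR, the lamin B receptor that doubles as a sterol C14 reductase, and FADS1, the delta-5 desaturase of polyunsaturated fatty acids, fell. The set as a whole had no single direction: 26 of 34 members were lower in the BM1 knockdown than in its control, and 21 of 34 were higher in the LM2 knockdown than in its control.

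The test was limma on log2(FPKM + 1) with terms for line and treatment, fitted to all 13928 genes and adjusted over all of them by the Benjamini-Hochberg method at a threshold of 0.05. Those with an unadjusted p under 0.05 numbered 11 of 34 members (32.4%) and 3465 genes (24.9%). The fit leaves 1 residual degree of freedom, so its errors lean on the spread pooled across genes, and with 1 culture per line and treatment they say nothing of repeat cultures. None of the 4 member calls was made with no filter on low values, with a pseudocount of 0.1, under quantile normalization or without the line term. The fits without any 1 of the 4 libraries also lacked the line term, so they are no separate check of the calls. Both changes of each called gene kept their direction under both other scalings tried.

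**Figure D1:**
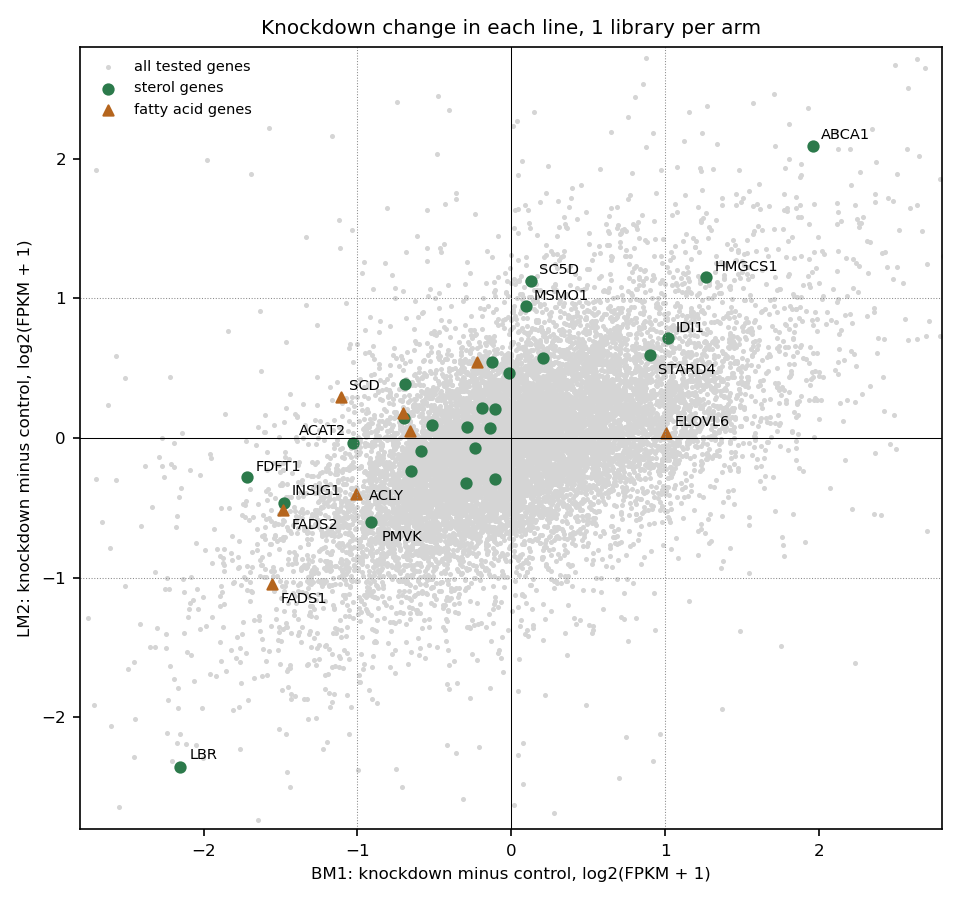
Difference between knockdown and control in BM1 (x axis) and in LM2 (y axis), each on the log2(FPKM + 1) scale from 1 library per arm, for the 34 members (green circles, sterol genes; brown triangles, fatty acid genes) and for all tested genes (grey); 65 grey points lie outside the axes. ABCA1 and HMGCS1 lie past 2-fold (dotted lines) at the upper right and LBR and FADS1 at the lower left, while SCD, FDFT1, ACAT2 and INSIG1 lie past 2-fold lower in BM1 and not in LM2.

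Within a line there was 1 library per arm, so the difference has no replicate check, and a fixed rule of 2-fold on the log2(FPKM + 1) scale was used as a description. In BM1, 8 of 34 members (23.5%) were lower by at least 2-fold, beside 6.20% of all tested genes: LBR, FDFT1, FADS1, FADS2, INSIG1, SCD, ACAT2 and ACLY. A further 4 members (11.8%) were higher by that much, beside 10.1% of all tested genes: ABCA1, HMGCS1, IDI1 and ELOVL6. ACLY and ELOVL6 were just past the line, at -1.01 and 1.01, and PMVK (-0.91) and STARD4 (0.90) just short of it. With median-ratio size factors the BM1 counts were 8 lower and 2 higher, and under quantile normalization 5 lower and 3 higher. In LM2, 2 of 34 (5.88%) were lower, LBR and FADS1, beside 4.24% of all tested genes. The 3 members (8.82%) that were higher in LM2 were ABCA1, HMGCS1 and SC5D, beside 3.83% of all tested genes.

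Within each line more members leaned one way than the other, down in BM1 and, less clearly, up in LM2. In BM1 26 of 34 members (76.5%) were lower in the knockdown, with a median of -0.29 on the log2 scale, whereas 49.7% of all tested genes were lower and their median was 0.005. In LM2 21 of 34 (61.8%) were higher, with a median of 0.09, against 46.5% of all tested genes and a median of -0.04. The members lower in BM1 and higher in LM2 numbered 13 (38.2%, beside 13.6% of all tested genes): SREBF2, MVK, MVD, LSS, CYP51A1, TM7SF2, NSDHL, HSD17B7, DHCR7, ACACA, FASN, SCD and LPIN1. The opposite combination was seen in 0 members and in 17.3% of all tested genes. SREBF2 in BM1 and ACAT2 in LM2 differed so little that their sign turned under another scaling. Whether the 2 lines differ in their response could not be tested with 4 libraries.

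The library that held the highest or the lowest level was counted for each gene. The BM1 control held the highest of the 4 levels for 17 of 34 members, beside 29.7% of all tested genes, and the BM1 knockdown held the lowest for 16 (47.1%), beside 23.0%. The LM2 control was the lowest of the 4 for 11 members (32.4%), beside 19.5% of all tested genes, and the LM2 knockdown the highest for 10 (29.4%), beside 20.6%. In the plot of levels by gene, the BM1 control appears as an open circle at the right of many rows.

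**Figure D2:**
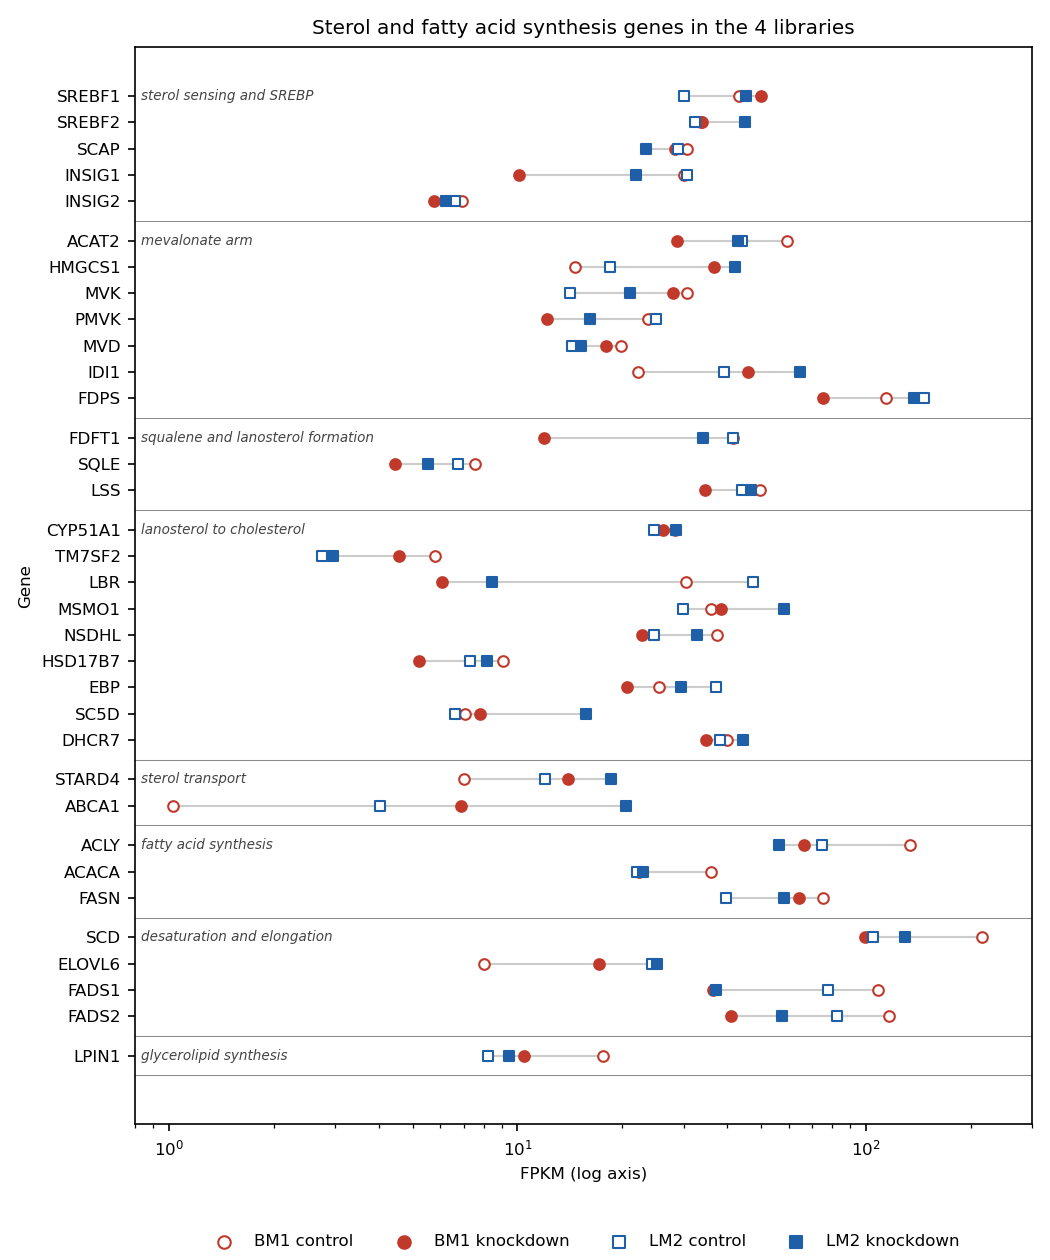
FPKM of each of the 34 genes (rows, grouped by role) on a log axis, with 1 point per library: circles BM1, squares LM2, open control, filled knockdown; the grey line spans the 4 values. Filled symbols lie right of both open ones for ABCA1 and HMGCS1 and left of both for LBR and FADS1.

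The order of the 4 libraries was then compared gene by gene. Both knockdowns lay above both controls for 7 members (20.6%), beside 21.8% of all tested genes: SREBF1, HMGCS1, IDI1, MSMO1, SC5D, STARD4 and ABCA1. Both knockdowns lay below both controls for 11 members (32.4%), beside 22.6% of all tested genes: SCAP, INSIG1, INSIG2, ACAT2, PMVK, FDFT1, SQLE, LBR, ACLY, FADS1 and FADS2. The first share is close to the background.

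To show what these genes carry upstream, the bases before their starts were read from RefSeq on GRCh38.p14, in which 30 of the 34 members matched. The windows hold the 250 bases before each start. CCAAT, searched on both strands (ATTGG on the other strand), occurred in 19 of the 30 members (63.3%) and in 37.0% of all 27305 genes. Those are all genes with a window, expressed here or not, whereas every member passed the limit for testing. The shares of members and of all genes in this paragraph are therefore from unlike sets. CCAAT occurred in 5 of the 7 members with both knockdowns above both controls (HMGCS1, IDI1, MSMO1, SC5D and STARD4), and in 2 of the 8 matched members with both knockdowns below both controls (INSIG1 and ACLY). The remaining holders, most of the 19, lay in neither group: ACACA, DHCR7, EBP, FDPS, HSD17B7, LSS, MVD, MVK, NSDHL, SCD, SREBF2 and TM7SF2. CYP51A1, ELOVL6 and LPIN1 also lay in neither group and held none. Whether the box goes with a direction was not tested. GGGCGG, the GC box of Sp1, occurred on either strand in 28 of 30 members (93.3%) and in 46.2% of all genes. No motif contains another, although matches can share bases at their ends, and a match is a description, not a bound site. The stretches shown are of the 4 called genes and of IDI1, STARD4 and INSIG1, which had both knockdowns on one side of both controls. They were trimmed to leave out every GENCODE 29 exon of the gene itself. Where a gene had several starts, the start whose stretch held most CCAAT was shown. For IDI1 this was start 3, and start 1 held none. IDI1, STARD4 and INSIG1 all hold CCAAT, so the boxes shown are not a sample of the set. CCAAT or ATTGG is in capitals, 5′ to 3′ along the gene's strand.
HMGCS1: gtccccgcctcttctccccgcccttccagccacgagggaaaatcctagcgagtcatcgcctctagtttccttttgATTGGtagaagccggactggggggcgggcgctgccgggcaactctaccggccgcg
IDI1: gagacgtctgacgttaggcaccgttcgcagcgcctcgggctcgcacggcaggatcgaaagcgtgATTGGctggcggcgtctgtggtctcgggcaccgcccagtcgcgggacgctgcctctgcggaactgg
STARD4: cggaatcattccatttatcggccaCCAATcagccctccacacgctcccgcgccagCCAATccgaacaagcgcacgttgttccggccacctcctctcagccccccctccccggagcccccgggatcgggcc
INSIG1: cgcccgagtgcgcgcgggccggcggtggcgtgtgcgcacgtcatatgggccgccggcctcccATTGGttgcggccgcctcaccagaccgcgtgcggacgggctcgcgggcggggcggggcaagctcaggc
ABCA1: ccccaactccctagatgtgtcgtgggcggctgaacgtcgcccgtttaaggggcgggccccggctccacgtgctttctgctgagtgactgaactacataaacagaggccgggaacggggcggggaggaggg
FADS1: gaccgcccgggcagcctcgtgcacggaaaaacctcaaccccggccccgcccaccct
LBR: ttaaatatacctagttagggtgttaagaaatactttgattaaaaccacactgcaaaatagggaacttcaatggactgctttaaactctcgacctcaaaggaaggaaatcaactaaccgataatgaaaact

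These stretches lie at chr5:43313513-43313642 (HMGCS1, minus strand), chr10:1049171-1049300 (IDI1, minus), chr5:111512591-111512720 (STARD4, minus), chr7:155297646-155297775 (INSIG1, plus), chr9:104928238-104928367 (ABCA1, minus), chr11:61817198-61817253 (FADS1, minus) and chr1:225428926-225429055 (LBR, minus), all on GRCh38.p14. HMGCS1, IDI1 and INSIG1 show 1 capital box each and STARD4 shows 2. In ABCA1, FADS1 and LBR none was found, here or in the rest of the window. The LBR stretch differs in base composition, with 33.8% G or C against 64.6% to 78.5% in the other 6.

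Among the sensors, no member passed the test in either direction (limma), INSIG1 was the 1 of 5 at an unadjusted p under 0.05, and it had the largest difference. SREBF1, which encodes SREBP-1, stood at 43.3 against 49.99 FPKM in BM1, and 30.1 against 45.4 FPKM in LM2 (control first, here and below). SREBF2, which encodes SREBP-2, measured 34.0 FPKM in BM1 (33.7 with knockdown) and 32.3 FPKM in LM2 (44.9 with knockdown). The SREBF1 knockdowns lay above both controls, by 0.20 in BM1 and 0.58 in LM2 on the log2 scale, while SREBF2 was higher in the LM2 knockdown than in the other 3 libraries. SREBF2 was the 1 member of 30 with the core of a sterol regulatory element, TCACNCCAC on either strand, in its window. The core was also held by 1.09% of all genes with a window, expressed here or not. It is shown in capitals with 30 bases on each side (chr22:41832942-41833010, GRCh38.p14, plus strand, 133 to 125 bases before the start).
SREBF2: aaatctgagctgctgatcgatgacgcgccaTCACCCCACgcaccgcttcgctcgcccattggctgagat

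The rest of the sensing machinery was lower after knockdown in both lines. SCAP, the escort that carries SREBP to the Golgi, stood at 30.6 against 28.4 FPKM in BM1, and 28.8 against 23.3 FPKM in LM2. INSIG1, the sterol-dependent anchor of SCAP and itself a well-known SREBP target, measured 29.97 FPKM in BM1 (10.1 with knockdown) and 30.6 FPKM in LM2 (21.9 with knockdown). Its controls were nearly level and its BM1 knockdown the lowest value, with log2 differences of -1.48 in BM1 and -0.47 in LM2. INSIG2, the second anchor, stood at 6.94 against 5.76 FPKM in BM1, and 6.60 against 6.25 FPKM in LM2.

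In the mevalonate arm, 1 of 7 members rose, none fell by the test, and the median log2 difference was -0.14 in BM1 and 0.07 in LM2. HMGCS1, on chr5:43289497-43313614 of GRCh37 (minus strand), had 14.7 FPKM in control and 36.6 FPKM in knockdown cells of BM1, and 18.4 and 42.1 FPKM in those of LM2. Both knockdowns were above both controls. The difference was 1.27 in BM1 and 1.15 in LM2 on the log2(FPKM + 1) scale, on average 1.21 ± 0.25 (SE), with a limma adjusted p of 0.0325. IDI1, which interconverts the isoprenyl diphosphates, measured 22.2 FPKM in BM1 (45.9 with knockdown) and 39.1 FPKM in LM2 (64.9 with knockdown). It was higher in each knockdown than in its own control, by 1.02 and 0.72 on the log2 scale, and did not pass the test.

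The other 5 members of the arm, like IDI1, did not pass the test. ACAT2, the cytosolic thiolase at the entry of the route, stood at 59.6 against 28.7 FPKM in BM1, and 44.3 against 43.1 FPKM in LM2. PMVK, the phosphomevalonate kinase, measured 23.7 FPKM in BM1 (12.1 with knockdown) and 25.0 FPKM in LM2 (16.1 with knockdown). ACAT2 was lower in 1 line and nearly level in the other, and PMVK was lower in both, by 0.91 and 0.60 on the log2 scale. MVK, the mevalonate kinase before it, stood at 30.6 against 28.0 FPKM in BM1, and 14.1 against 21.1 FPKM in LM2. MVD, the decarboxylase after it, measured 19.9 FPKM in BM1 (18.0 with knockdown) and 14.4 FPKM in LM2 (15.2 with knockdown). For MVK and MVD, both LM2 libraries lay below both BM1 libraries. FDPS, which builds farnesyl diphosphate, was the most abundant member of this arm per length, with 114 against 75.5 FPKM in BM1 and 147 against 138 FPKM in LM2. The table also lists 3 FDPS pseudogenes, between which reads could be split.

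From farnesyl diphosphate to lanosterol, 0 of 3 members passed the limma test, and the largest difference was that of FDFT1 in BM1; FDFT1 was the 1 gene of these at an unadjusted p under 0.05. FDFT1, squalene synthase, had 41.5 FPKM in control and 11.9 FPKM in knockdown cells of BM1, and 41.6 and 34.1 FPKM in those of LM2. A single library was low: 28.8% of the control level was left in BM1 and 81.9% in LM2. The average log2 difference was -0.998 ± 0.35 (SE) with a limma adjusted p of 0.127. It was -0.28 in a fit without the BM1 knockdown and the line term. SQLE, squalene epoxidase, stood at 7.54 against 4.45 FPKM in BM1, and 6.73 against 5.55 FPKM in LM2. LSS, which closes the ring to lanosterol, measured 49.7 FPKM in BM1 (34.5 with knockdown) and 44.0 FPKM in LM2 (46.9 with knockdown).

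From lanosterol to cholesterol, 1 of 9 members fell, and 7 of 9 were higher in the LM2 knockdown than in its control while 7 of 9 were lower in the BM1 knockdown than in its control. LBR, on chr1:225589204-225616627 of GRCh37 (minus strand), had 30.4 FPKM in control and 6.06 FPKM in knockdown cells of BM1, and 47.5 and 8.45 FPKM in those of LM2. Both knockdowns were far below both controls, with 19.9% of the control level left in BM1 and 17.8% in LM2. The log2 difference was -2.16 in BM1 and -2.36 in LM2, on average -2.26 ± 0.25 (SE), with a limma adjusted p of 0.00615. LBR is also an inner nuclear membrane protein that binds lamin B and heterochromatin. TM7SF2, the other sterol C14 reductase, stood at 5.80 against 4.58 FPKM in BM1, and 2.74 against 2.96 FPKM in LM2, with 78.9% of the control level in BM1 and 108% in LM2. LBR passed the test and TM7SF2 did not, the difference between the 2 genes was not tested, and LBR was the more abundant per length in each library.

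CYP51A1, the C14 demethylase before that step, measured 28.3 FPKM in BM1 (26.2 with knockdown) and 24.6 FPKM in LM2 (28.5 with knockdown). MSMO1, the C4 methyl oxidase, stood at 35.8 against 38.3 FPKM in BM1, and 29.8 against 58.4 FPKM in LM2. SC5D, the C5 desaturase, measured 7.05 FPKM in BM1 (7.80 with knockdown) and 6.63 FPKM in LM2 (15.7 with knockdown). MSMO1 and SC5D were alike in that the LM2 knockdown stood alone, 0.95 and 1.13 above its control on the log2 scale, while the BM1 libraries differed by 0.09 and 0.13. NSDHL, the next enzyme at the C4 position, stood at 37.3 against 22.7 FPKM in BM1, and 24.7 against 32.7 FPKM in LM2, an opposite order in the 2 lines. HSD17B7, the C3 ketoreductase, measured 9.08 FPKM in BM1 (5.21 with knockdown) and 7.31 FPKM in LM2 (8.16 with knockdown). EBP, the sterol isomerase, stood at 25.5 against 20.7 FPKM in BM1, and 37.1 against 29.5 FPKM in LM2, with log2 differences of -0.29 and -0.32. DHCR7, which makes cholesterol from its last precursor, measured 39.9 FPKM in BM1 (34.8 with knockdown) and 38.1 FPKM in LM2 (44.4 with knockdown), and its average log2 difference, 0.01, was the smallest of the 34 in size.

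Of the 2 sterol carriers, 1 rose. ABCA1, on chr9:107543283-107690518 of GRCh37 (minus strand), had 1.02 FPKM in control and 6.87 FPKM in knockdown cells of BM1, and 4.03 and 20.4 FPKM in those of LM2. Each knockdown was above both controls, and within each treatment LM2 was above BM1. The FPKM ratio of knockdown to control was 6.71 in BM1 and 5.08 in LM2, and on the log2(FPKM + 1) scale the differences were 1.96 and 2.09. The average was 2.03 ± 0.25 (SE) with a limma adjusted p of 0.00759. The lowest value rests on about 335 fragments if all came from the longest coding transcript. STARD4, which carries sterols between membranes, stood at 7.04 against 14.0 FPKM in BM1, and 11.96 against 18.5 FPKM in LM2, higher in both knockdowns, and did not pass the test.

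Of the fatty acid synthesis enzymes, 0 of 3 passed the limma test, and ACLY was the 1 of these at an unadjusted p under 0.05. ACLY, which makes cytosolic acetyl-CoA from citrate, measured 134 FPKM in BM1 (66.2 with knockdown) and 74.7 FPKM in LM2 (56.4 with knockdown). ACACA, acetyl-CoA carboxylase, stood at 35.9 against 22.4 FPKM in BM1, and 22.0 against 22.9 FPKM in LM2. FASN, which builds palmitate, measured 75.1 FPKM in BM1 (64.2 with knockdown) and 39.6 FPKM in LM2 (58.1 with knockdown). For these 3 genes the BM1 control was the highest library; the other 3 lay close together for ACACA, while FASN was lowest in the LM2 control. LPIN1, a phosphatidate phosphatase that makes diacylglycerol, had the same order of libraries as FASN, with 17.6 against 10.45 FPKM in BM1 and 8.24 against 9.47 FPKM in LM2.

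**Figure D3:**
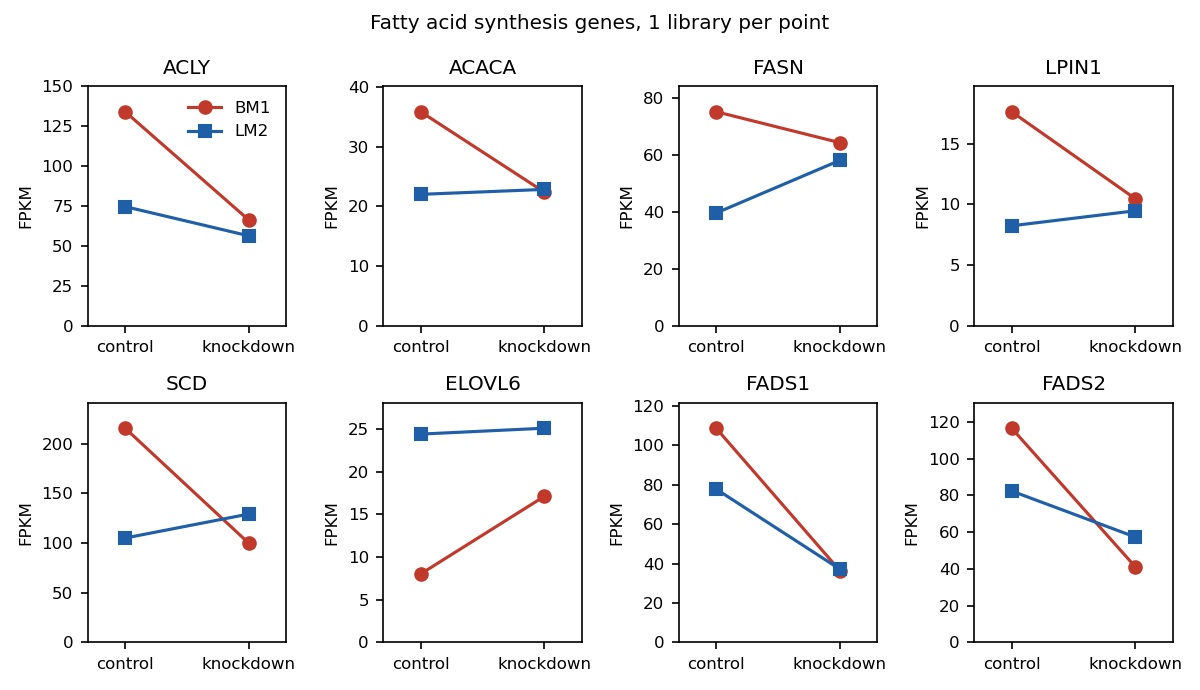
FPKM (y axes from 0, a scale per gene) of 8 fatty acid and glycerolipid genes in the control and knockdown libraries of BM1 (red circles) and LM2 (blue squares), 1 library per point. The BM1 control is the highest point for 7 of the 8 genes, and FADS1 and FADS2 are lower in both knockdowns.

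Among the desaturases and the elongase, 1 of 4 fell. FADS1, on chr11:61567097-61596790 of GRCh37 (minus strand), had 109 FPKM in control and 36.3 FPKM in knockdown cells of BM1, and 77.7 and 37.1 FPKM in those of LM2. The knockdowns were level with each other, at 33.4% and 47.7% of their controls. The log2 differences were -1.55 and -1.05, on average -1.30 ± 0.27 (SE), with a limma adjusted p of 0.0305. FADS2, the delta-6 desaturase that precedes it, stood at 117 against 41.0 FPKM in BM1, and 82.4 against 57.3 FPKM in LM2. It was lower in both knockdowns as well, by log2 differences of -1.48 and -0.52 (SE of the average 0.30), with a limma adjusted p of 0.0887 that misses the threshold. The 2 genes overlap on opposite strands of chr11 in the table's coordinates, and whether the authors' counting used the strand of the libraries was not stated, so reads in the overlap could count for either.

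SCD, the delta-9 desaturase that makes oleate, was the most abundant of the 34 per length in the BM1 control, with 216 FPKM, and had 99.7 FPKM after BM1 knockdown, 105 FPKM in control LM2 and 129 FPKM after LM2 knockdown. It had the widest split of the fatty acid genes between the lines, -1.11 in BM1 and 0.30 in LM2 on the log2 scale. ELOVL6, which extends palmitate to stearate, was the 1 fatty acid gene higher in the BM1 knockdown, with 8.02 against 17.1 FPKM in BM1 and 24.4 against 25.1 FPKM in LM2. Here the BM1 control was the lowest library.

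The comparison of the lines uses the same 4 libraries, so it is not independent of the values above. Over both treatments 1 of 34 members was called higher in LM2 by limma, beside 2.31% of all tested genes, and 0 of 34 lower, beside 2.04% of all tested genes. At an unadjusted p under 0.05 the limma counts were 6 of 34 members (17.65%) and 3114 genes (22.36% of all tested genes). The called member was ABCA1, with a log2 difference of 1.31 between the controls, 1.45 between the knockdowns and 1.38 ± 0.25 (SE) on average, limma adjusted p 0.0215. This call, too, was not made with no filter, a pseudocount of 0.1, quantile normalization or no treatment term. With any 1 library left out the difference ran from 0.33 to 2.43. Those fits also dropped the treatment term, so treatment is mixed into their line difference. ELOVL6 followed, at 1.49 and 0.53, on average 1.01 ± 0.30 (SE), adjusted p 0.0955. MVK (-0.73 ± 0.28, adjusted p 0.168), TM7SF2 (-0.68 ± 0.26, adjusted p 0.170), IDI1 (0.64 ± 0.26, adjusted p 0.186) and FDFT1 (0.72 ± 0.35, adjusted p 0.263) completed the 6 largest and did not pass. Both LM2 libraries lay above both BM1 libraries for 3 members (EBP, ELOVL6 and FDPS), beside 19.4% of all tested genes, and below them for 5 (FASN, LPIN1, MVD, MVK and TM7SF2), beside 21.6% of all tested genes.

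Between the controls alone, 2 members were at least 2-fold higher in LM2 (ABCA1 and ELOVL6), beside 6.98% of all tested genes, and 3 at least 2-fold lower (MVK, SCD and LPIN1), beside 5.26% of all tested genes. Between the knockdowns, 3 were at least 2-fold higher in LM2 (ABCA1, FDFT1 and INSIG1), beside 4.41% of all tested genes, and 0 lower, beside 4.63% of all tested genes. The median over the members was -0.16 between the controls and 0.38 between the knockdowns, against 0.03 and -0.06 over all tested genes. Between the controls 23 of 34 members (67.6%) were lower in LM2, beside 47.8% of all tested genes, and between the knockdowns 26 of 34 (76.5%) were higher in LM2, beside 45.3% of all tested genes. FDFT1 had level controls (0.01) and knockdowns 1.44 apart. MVK was at -1.06 between controls and -0.40 between knockdowns, and SCD at -1.03 and 0.37. The difference between the lines was smaller in size after knockdown in 19 of 34 members (55.9%), a share close to the 56.1% of all tested genes.

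**Figure D4:**
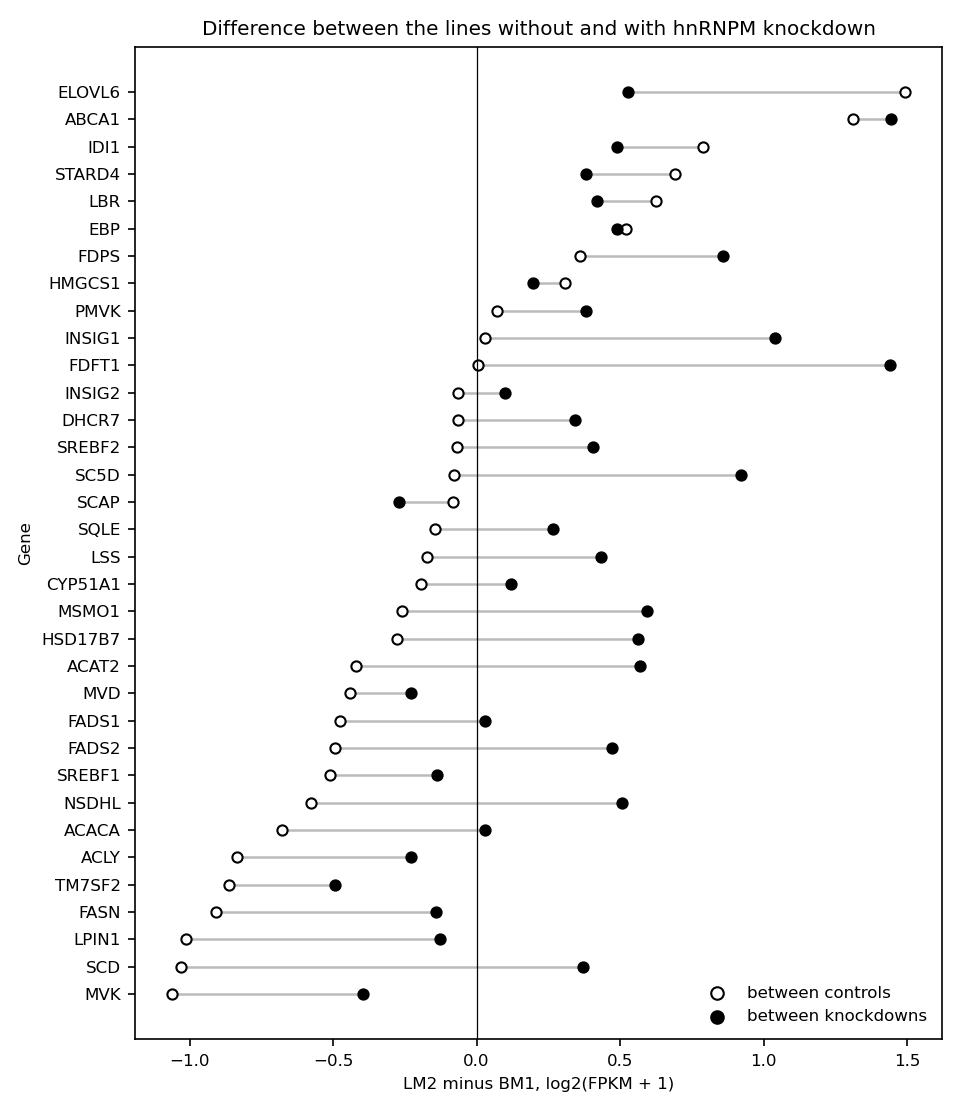
LM2 minus BM1 on the log2(FPKM + 1) scale for each of the 34 genes, between the 2 control libraries (open) and between the 2 knockdown libraries (filled), ordered by the first. Most filled points lie to the right of their open ones, with the widest gaps for FDFT1 and SCD, and ABCA1 stands above 1 in both.

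Other genes of lipid metabolism came from 6 lists of 76 genes, of which 75 could be tested. With knockdown 2 of the 75 rose, ELOVL7 and HACD2, beside 2.71% of all tested genes. Another 2 fell, ACSL1 and DGAT2, beside 2.76% of all tested genes. Both shares are close to the background. The alternative settings were run for the members and not for the genes of these lists. ELOVL7, an elongase of very long chain fatty acids, measured 0.766 FPKM in BM1 (5.25 with knockdown) and 6.24 FPKM in LM2 (18.6 with knockdown), an average log2 difference of 1.63 ± 0.26 (SE), limma adjusted p 0.0150. HACD2, a dehydratase of the same elongation cycle, stood at 10.1 against 25.1 FPKM in BM1, and 4.85 against 19.0 FPKM in LM2, an average of 1.51 ± 0.27 (SE), adjusted p 0.0207. Other elongation genes of the same list went both ways and none was called. On average ELOVL1 (-0.43) and TECR (-0.49) were lower, and ELOVL5 (0.125), HACD3 (0.28) and HSD17B12 (0.63) higher. ACSL1, which activates fatty acids with CoA, measured 10.2 FPKM in BM1 (3.56 with knockdown) and 12.5 FPKM in LM2 (6.34 with knockdown), an average of -1.09 ± 0.26 (SE), adjusted p 0.0483. DGAT2, which makes triglyceride, stood at 4.82 against 1.16 FPKM in BM1, and 4.94 against 0.667 FPKM in LM2, an average of -1.63 ± 0.26 (SE), adjusted p 0.0151. Between the lines, ELOVL7 (1.84, adjusted p 0.00750) and SCD5 (1.74, adjusted p 0.00811), a second delta-9 desaturase, were higher in LM2.

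The list medians of the average log2 difference ran from -0.16 for SREBP processing and degradation to 0.13 for isoprenoid side branches, beside -0.008 over all tested genes. In the 4 lists not yet mentioned, limma called 0 genes for knockdown. The unadjusted counts under 0.05 were 4 of 11 for SREBP processing and degradation, 1 of 13 for sterol uptake, storage and efflux, 2 of 11 for isoprenoid side branches and 1 of 10 for fatty acid oxidation, beside 24.9% of all tested genes. In the lists that held the called genes they were 5 of 19 for other fatty acid supply and modification and 4 of 11 for triglyceride and phospholipid synthesis. The 3 subunits of NF-Y, the factor that binds CCAAT, differed among themselves. NFYB measured 4.80 FPKM in BM1 (16.3 with knockdown) and 5.79 FPKM in LM2 (9.72 with knockdown), adjusted p 0.0632. NFYA stood at 22.9 against 19.9 FPKM in BM1, and 17.7 against 16.2 FPKM in LM2, and NFYC at 29.4 and 19.6 in BM1 and at 16.1 and 12.5 in LM2. They are named here for their motif and after their values were seen. Neither LXR gene was called: NR1H2 was at 31.5 to 36.6 FPKM, and NR1H3 measured 8.74 FPKM in BM1 (7.27 with knockdown) and 4.94 FPKM in LM2 (4.82 with knockdown).

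Of the 34 members, 16 overlap another listed gene in the table's coordinates, 14 of them one on the opposite strand, among these HMGCS1, LBR, IDI1, STARD4, FADS1 and FADS2. The partners in the table are FADS2 for FADS1, IDI2-AS1 for IDI1, STARD4-AS1 for STARD4 and AC092811.1 for LBR. ABCA1, FDFT1, INSIG1, SC5D and MSMO1 overlap none.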

How the data were processed

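The authors deposited 1 table of FPKM values per gene, 1 column per library, per the labels. The submitters' processing notes name STAR 2.5.3a, Cuffdiff 2.2.1 and the build GRCh37, without saying how each was used, with annotation release and use of strand not given in the sources used here. FPKM corrects for gene length and library size but not for composition. Of 20369 rows, 40 with repeated gene identifiers were left out, and 20329 genes remained. Values were analysed as log2(FPKM + 1), which understates the changes of low genes, for the genes whose mean FPKM was 1 or more. The fit used limma 3.58.1 in R 4.3.3, without an intensity trend, and its script was tested on simulated data. P-values were two-sided, and errors are the moderated standard errors of the fit. Cell line pairs a knockdown with its control, since both come from that line (Pearson r of the deviations 0.545 over 13928 genes). Depth came from the steps between values of 1623 low single-transcript genes. Of their values within a set range of steps, 36.1% to 44.1% lay within 0.02 of a whole multiple, but finer steps gave 55.9% to 64.5%. The meaning of a step, the depths and the fragment counts are therefore inferred, and no count test was run. Promoter windows came from RefSeq, GRCh38.p14, and exons from GENCODE 29; no coordinates were converted between builds.

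The 34 members and the other lists were chosen from general knowledge with earlier results of these data known, so they are no independent support for a direction. Statistics are given for members below the threshold and for the 6 largest average differences per contrast; of the other lists, genes below the threshold, or past 2-fold the same way in both lines, are named, at most 4 per list. Alternatives were pseudocounts of 0.1 and 0.5, median-ratio size factors, quantile normalization, an intensity trend, no filter, no line or treatment term, each library left out, and a 1.5-fold rule. Fits with a library left out kept only the term tested.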

Additional observations from a re-analysis of the deposited data

How the results depend on the processing

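With 1 culture per line and treatment and 1 residual degree of freedom, the calls depend strongly on the settings. The directions of the largest differences mostly did not, although some settings could not change them. For knockdown, 762 genes and 4 members were called. The counts were 888 and 4 with an intensity trend. They fell to 0 genes and 0 members with no filter, with no replicate block (the line term left out), under quantile normalization and without any 1 library (0 to 0), and to 27 genes and 0 members with a pseudocount of 0.1. With these settings limma still had 3735, 1548, 3255, 860 to 1943 and 3030 genes at an unadjusted p under 0.05. For the lines, 606 genes and 1 member were called; the counts were 0 genes and 0 members with no filter, 11 and 0 with no replicate block (the treatment term left out), 216 and 0 with a pseudocount of 0.1, 104 and 0 under quantile normalization, and 6 to 28 and 0 to 0 without 1 library. Adjusted p for knockdown over all alternatives ran from 0.0025 to 0.613 for LBR, 0.00679 to 0.769 for ABCA1, 0.0162 to 0.763 for FADS1 and 0.0213 to 0.754 for HMGCS1, and their log2 differences from -2.57 to -1.94, 1.304 to 2.75, -1.54 to -1.06 and 1.06 to 1.36. The ABCA1 line difference ran from 0.33 to 2.43. Both ends of each of these ranges of differences came from fits without 1 library. Such a fit also dropped the other term, so line and treatment mix in it. Of 132 alternatives for single genes, 91 kept their direction and side of the threshold, 40 kept only their direction, and 1 turned. All 40 belonged to differences called in the main fit, while differences not called there had no call to lose. An intensity trend, no filter, or a term left out with all 4 libraries kept gives the same log2 difference by construction. Under these settings no direction could turn. The 1 that turned was the FDFT1 line difference, -0.14 without the BM1 knockdown and the treatment term (-0.14 to 1.58 over the 4 libraries left out in turn). Between the controls that difference was 0.01. At 1.5-fold in place of 2-fold, 20 members passed in BM1 (12 before), 9 in LM2 (5), 12 between controls (5) and 6 between knockdowns (3). In BM1 that was 58.8% of members, beside 37.8% of all tested genes. In LM2 it was 26.5%, close to the 24.5% of all tested genes. The share of all tested genes past 1.5-fold between the lines was not counted. Why counts and calls changed with the settings was not tested. By the inferred depth, the fewest fragments lay behind TM7SF2 in the LM2 knockdown (139) and HSD17B7 in the BM1 knockdown (141).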
